A study of Hapsidospora chrysogena with 9 samples.

Results

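The genes described here are those whose transcripts were lower in an AcmybA knockout of Hapsidospora chrysogena than in both the wild type and an AcmybA overexpression strain. H. chrysogena, also called Acremonium chrysogenum, is the filamentous fungus used to make cephalosporin C. The members were chosen on the expression values themselves, by 4 conditions on log2(FPKM + 1), where FPKM is a fragment number scaled by transcript length and library depth. The mean FPKM over the 9 libraries had to be at least 10. The knockout had to lie at least 0.75 below wild type, as the mean over 3 times. Overexpression had to lie less than 0.5 from wild type on the same mean, and the knockout had to be the lowest strain at each of the 3 times. Of 8899 genes in the table, 7360 reached the level, 489 of these also met the condition on the knockout, 179 also met that on overexpression, and 123 met all 4.

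Mycelium of 3 strains was sampled in LPE medium at 48, 72 and 96 h of culture, and polyadenylated RNA was sequenced, with 1 library per strain and time. The strains are labelled wild type, AcmybA knockout and AcmybA overexpress. The labels do not say what drives the overexpressed gene, how the knockout was made, or whether each mutant is 1 clone. The series title names repression of conidiation and of cephalosporin production as the question of the study. Where 3 values of a gene are given for a strain, they are those at 48, 72 and 96 h in that order. No label says that a library was repeated from a separate culture. Every p-value below therefore weighs a fitted time change or slope difference against the scatter that its model left within these 9 libraries. That scatter is not a spread between repeated cultures, and a difference at a single time has no replicate check.

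Myb proteins bind DNA through helix-turn-helix repeats and either activate or repress transcription. In filamentous fungi, factors of this family are known for roles in asexual spore formation and in secondary metabolism. A gene that is low without such a factor can be its direct target or lie further downstream, and transcript levels alone do not tell these apart. Fewer cells of a type and less RNA per cell cannot be told apart in bulk mycelium either. The table identifies genes by protein accession only and does not pair accessions with names, so AcmybA itself was not located, no role can be given to a member, and no pathway list could be matched.

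The libraries summed to between 852915 and 1124539 FPKM, and 302 to 503 genes were listed at 0. Read numbers are not stated. The most frequent ratio between low values of 2 libraries was taken as their relative depth, with wild type at 96 h as the reference, and a second peak of fewer genes left most estimates ambiguous. The first peak lay at 0.829 to 0.950 for wild type at 48 and 72 h and the knockout at 72 and 96 h, with a second peak at 0.414 to 0.446 for these knockout libraries and at 1.86 to 1.90 for these wild-type libraries. It lay at 2.40 for the knockout at 48 h, with a second peak at 1.20. For overexpression it lay at 3.54, 2.39 and 2.22, with second values at 1.77, 2.41 and 1.11. The values of 2.39 and 2.41 lie side by side, so overexpression at 72 h has no separate second peak. The first peaks held 5 to 16 genes each and the second 4 to 9, with the value of 2.41 counted as a second. By every value, the depth of all 3 overexpression libraries and of the knockout at 48 h was above that of wild type at 96 h, by an amount that these peaks do not settle.

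**Figure D1:**
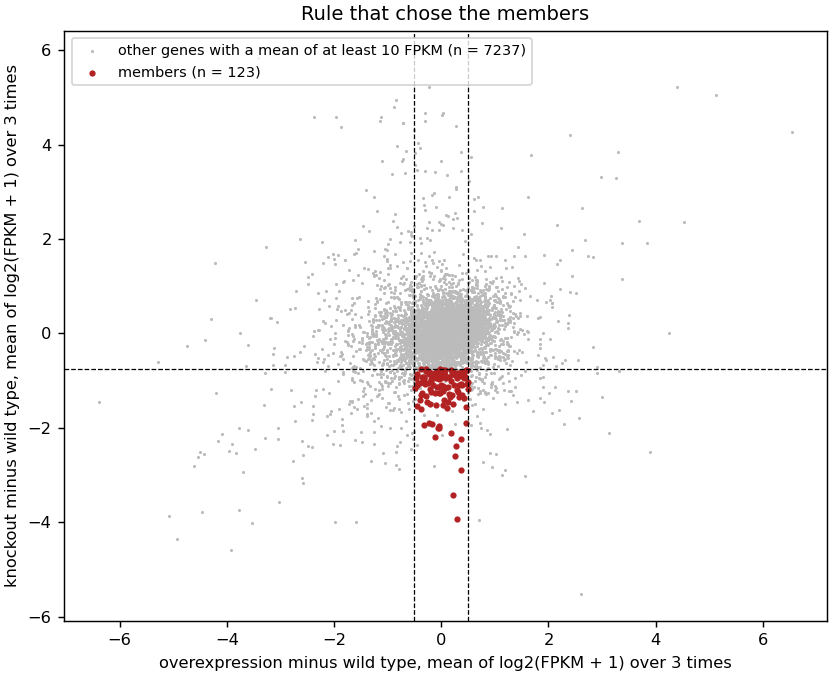
Each point is a gene with a mean of at least 10 FPKM, placed by its difference from wild type in overexpression (x axis) and in the knockout (y axis), both as means of log2(FPKM + 1) over 3 times. Red points are the 123 members, dashed lines mark -0.75 and plus or minus 0.5, and grey points inside the dashed box are genes in which the knockout was not the lowest strain at every time.

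The choice of members was a close one at each limit. On the knockout condition, the 3 members nearest the limit lay at -0.752, -0.754 and -0.759, and the 3 nearest genes outside lay at -0.743, -0.739 and -0.738. On the overexpression condition, the nearest members lay 0.499, 0.496 and 0.489 from wild type, and the nearest genes outside lay 0.505, 0.513 and 0.514 from it. The lowest members had mean levels of 11.3 and 12.2 FPKM, and the first genes left out for their level had 9.67 and 9.48 FPKM. The order at each time removed 56 genes, 38 of them through their 48 h values, 18 through their 96 h values and 5 through their 72 h values, some through more than 1 time.

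Across the members, the median difference from wild type was -1.08 on the log2 scale in the knockout and 0.01 in overexpression. The quartiles of the knockout differences were -1.32 and -0.87, 69 members lay at -1 or below, and 10 lay at -2 or below. The same medians over all genes with a mean of at least 10 FPKM were 0.04 and 0.08. These values follow from the rule and are given as a description.

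The mean over 9 libraries was below 100 FPKM for 65 members, between 100 and 1000 FPKM for 47 and above 1000 FPKM for 11. The median of these means was 87.9 FPKM, against 53.4 FPKM over all genes with a mean of at least 10 FPKM. The median member stood at 112, 96.7 and 83.0 FPKM in wild type, and at 103, 98.9 and 77.3 FPKM in overexpression. In the knockout the median member stood at 46.2, 41.0 and 37.4 FPKM. Together the members took 5.18%, 9.18% and 8.72% of the summed FPKM of wild type at 48, 72 and 96 h, 7.19%, 7.82% and 7.16% of overexpression, and 3.21%, 4.90% and 2.58% of the knockout. The member with the highest mean level supplied 0.701% to 3.85% of each library. Without it the shares were 4.24% to 5.54% in wild type, 1.88% to 2.97% in the knockout and 5.27% to 5.60% in overexpression.

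**Figure D2:**
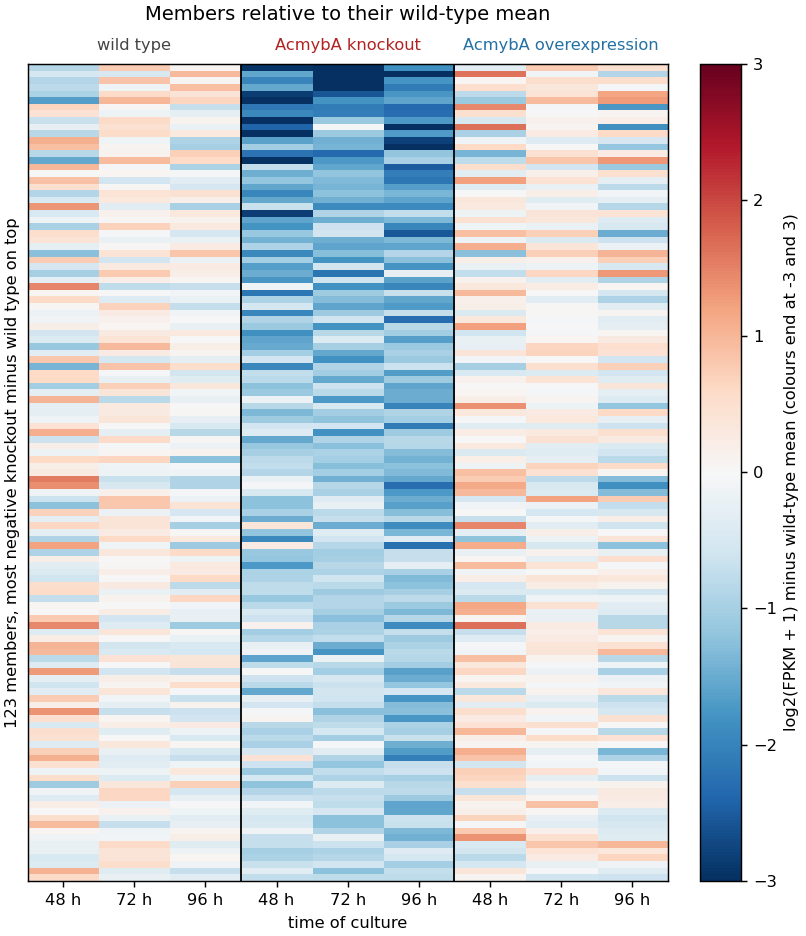
Rows are the 123 members, ordered from the most negative difference between knockout and wild type at the top, and columns are the 9 libraries. Colour is log2(FPKM + 1) minus the member's mean in wild type, so the 3 knockout columns are mostly blue while the overexpression columns hold both colours.

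Of the 123 members, 79 (64.2%) had all 3 knockout libraries below all 3 wild-type libraries, whatever the time. Among all genes with a mean of at least 10 FPKM the share was 6.88%. The rule compares the same libraries, so nothing is read from this difference. In the other 44 members the highest knockout library overlapped the lowest wild-type library, because levels also varied over time. The knockout libraries lay below all overexpression libraries for 77 members, and below both other strains for 59. The rule compares these libraries too, and no share over all genes is given, so nothing is read from these counts either.

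The knockout deficit was of similar size at each time for the group as a whole, but not for single members. Its median was -1.08 at 48 h, -1.08 at 72 h and -1.21 at 96 h. At least a 2-fold lower level, taken as a log2 difference of -1 or below, was seen in 70 members at 48 h, 68 at 72 h and 76 at 96 h. Only 24 members were that low at all 3 times, 98 at 1 or 2 of them and 1 at none. The deficit was largest at 48 h in 45 members, at 72 h in 32 and at 96 h in 46. The rule fixes the sign of the deficit at each time and limits its mean, so these medians and counts are a description. No share over all genes is given beside the counts.

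The deepest deficits belonged to members that the table lists at 0 in the knockout. KFH42484.1 was at 69.2, 215 and 134 FPKM in wild type, and at 99.3, 213 and 178 FPKM in overexpression. In the knockout it was at 15.4 FPKM at 48 h, listed at 0 at 72 h and at 34.6 FPKM at 96 h. All 3 knockout libraries of this gene were below every other library, and its log2 difference from wild type was -2.09 at 48 h and -1.92 at 96 h.

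KFH43321.1 was a gene of lower level, at 13.4, 13.6 and 39.0 FPKM in wild type. Overexpression had 61.5, 18.3 and 10.1 FPKM. The knockout had 5.92 FPKM at 48 h and was listed at 0 at 72 and 96 h. Wild type was highest at 96 h and overexpression at 48 h, and these strains overlapped.

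In all, 4 members were listed at 0 in at least 1 knockout library, with 4 of the 5 such values at 72 h. None was listed at 0 in wild type or overexpression, but the rule allows none, since the knockout had to be lower at each time. Of all genes with a mean of at least 10 FPKM, 1.44% were at 0 in some library. A value of 0 beside values above 10 FPKM at other times of the same strain can be a missing estimate. Only KFH42484.1 had such knockout values, 15.4 and 34.6 FPKM. In the other members listed at 0, the knockout values above 0 lay between 3.18 and 7.90 FPKM. In 3 of these 4 members a value in some library equalled, to all 6 digits given, that of another gene in the same library. The same held for 13 of the other 119 members (10.9%) and 11% of genes with a mean of at least 10 FPKM. Whether few reads lie behind these values was not tested.

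Among the 119 members above 0 in every library, the deepest deficits were those of KFH45735.1 and KFH47136.1, a pair named after the values were seen. KFH45735.1 was at 35.0, 103 and 90.7 FPKM in wild type, and at 39.7, 92.5 and 157 FPKM in overexpression. In the knockout it was at 8.65, 10.8 and 19.98 FPKM, so that every knockout library lay below every library of the other strains. Its differences from wild type were -1.90, -3.14 and -2.13 on the log2 scale.

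KFH47136.1 was at 61.9, 392 and 306 FPKM in wild type. Overexpression had 89.3, 377 and 477 FPKM and the knockout 18.5, 56.1 and 64.3 FPKM. The level at 48 h was the lowest in each strain, and the knockout at 96 h only just overlapped wild type at 48 h. Its differences from wild type at 48, 72 and 96 h were -1.69, -2.78 and -2.23, with a mean of -2.23. That mean was -3.05 without wild type at 48 h and -1.68 without the knockout at 48 h, but each of these compares strains over unequal sets of times. With the same time left out of every strain, the mean was -2.51 without 48 h, -1.96 without 72 h and -2.24 without 96 h.

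The pair of members with the highest mean level had little or no deficit in the knockout at the first time. KFH46859.1 was at 9872 FPKM in wild type and 9862 FPKM in the knockout at 48 h. At 72 and 96 h it was at 40273 and 30895 FPKM in wild type and at 19791 and 7479 FPKM in the knockout. In overexpression it was at 21551, 20433 and 13857 FPKM at 48, 72 and 96 h. At 72 and 96 h overexpression was therefore closer to the knockout than to wild type, and the gene met the overexpression condition only as a mean, with differences from wild type of 1.13, -0.98 and -1.16.

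KFH47707.1 was at 3453, 9052 and 11895 FPKM in wild type. The knockout had 3098, 5409 and 4042 FPKM and overexpression 10112, 7642 and 7723 FPKM. Its knockout deficit was -0.16, -0.74 and -1.56 at 48, 72 and 96 h, and its difference in overexpression was 1.55, -0.24 and -0.62. In both of these genes overexpression exceeded wild type at 48 h and lay below it at 96 h.

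**Figure D3:**
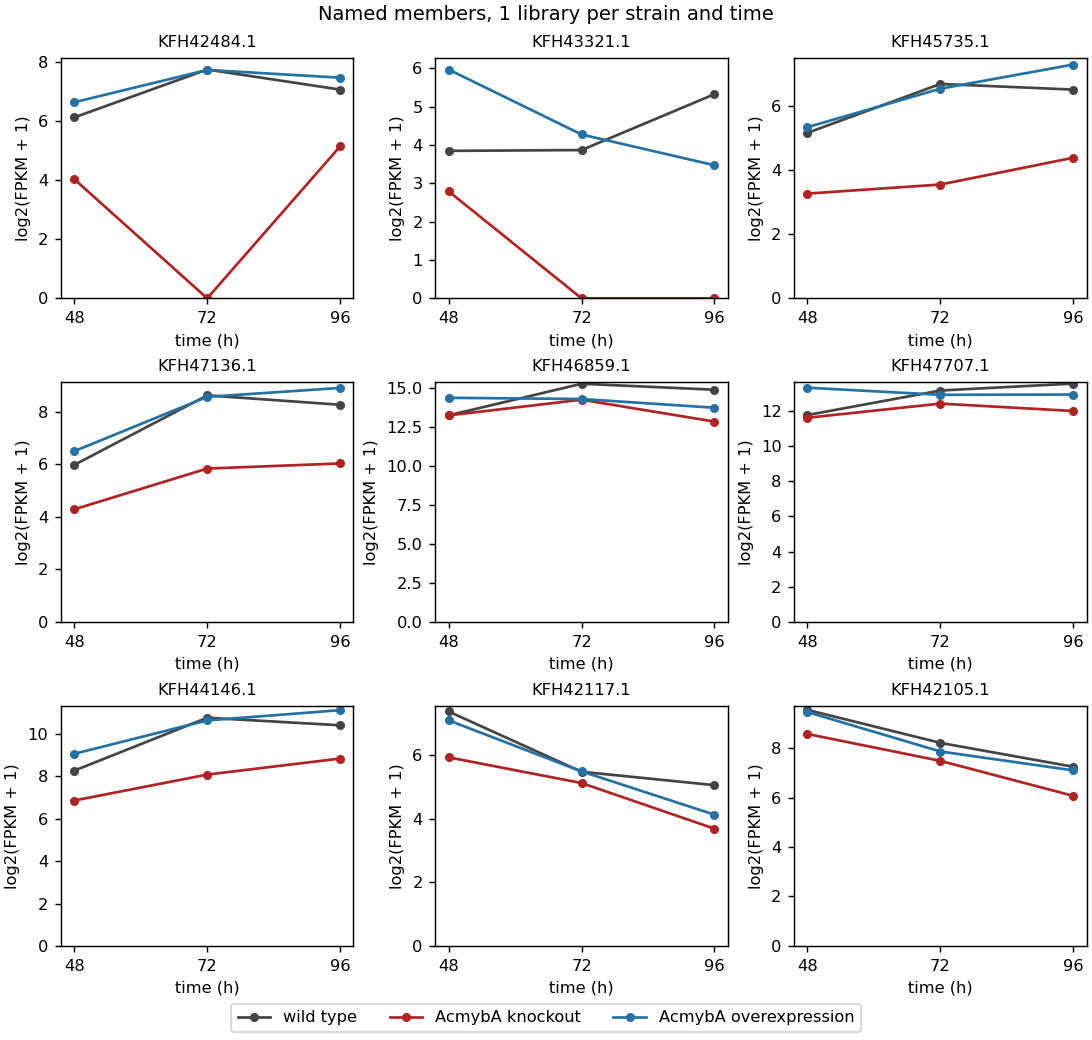
Each panel is a named member, with log2(FPKM + 1) against time in h and 1 line per strain; every point is 1 library. The knockout line is the lowest at each time in every panel, it reaches 0 in KFH42484.1 and KFH43321.1, and it meets the wild-type line at 48 h in KFH46859.1.

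The condition on overexpression was met by the mean over times, and single times departed from it. Overexpression lay within 0.5 of wild type at every time in only 28 of the 123 members, and within 1 in 94. It was above wild type at all 3 times in 8 members, below it at all 3 in 17, and on both sides in 98. A difference of at least 1 in size was seen in 23 members (18.7%) at 48 h, 1 (0.813%) at 72 h and 12 (9.76%) at 96 h. The corresponding shares of all genes with a mean of at least 10 FPKM were 17.8%, 11.4% and 15.3%. At 48 h, 15 of the 23 members were higher in overexpression and 8 lower. In 42 members overexpression was above wild type at 48 h and below it at 96 h, and in 31 the reverse. Read time by time, 35 members (28.5%) also lay at -0.75 or below in overexpression at some time, against 22.9% of all genes with a mean of at least 10 FPKM. In the other 88 members overexpression stayed above -0.75 at each time, which says nothing of the size of their knockout deficit at single times. The rule limits the mean of these differences and used the same libraries, so nothing is read from these counts or from the shares beside them. No share over all genes is given for the counts within a limit or by side of wild type.

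**Figure D4:**
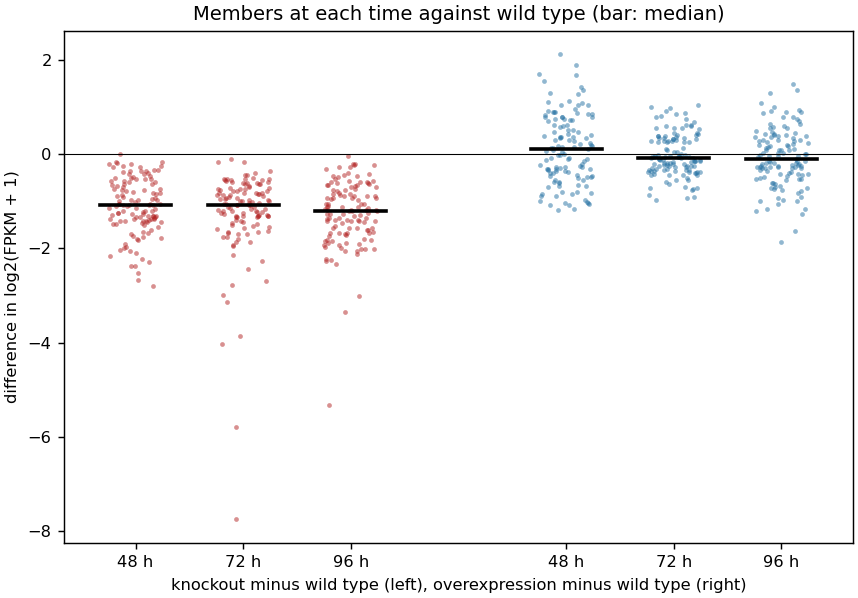
Points are the 123 members and bars their medians, as the difference in log2(FPKM + 1) from wild type at 48, 72 and 96 h. The knockout (left, red) lies below 0 at each time by the rule, with medians of -1.08, -1.08 and -1.21, and overexpression (right, blue) scatters around 0, most widely at 48 h.

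The change with culture time was not part of the rule and could be tested. A fit of strain plus time to all 9 libraries in limma, over 8482 genes with Benjamini-Hochberg adjustment, asked which genes differed between 96 and 48 h in all strains together. All 123 members passed the filter of 1 FPKM in at least 3 libraries. Of these, 8 (6.50%) rose and 16 (13.0%) fell at an adjusted p under 0.05. Among all genes tested 5.99% rose and 6.19% fell, and among tested genes with a mean of at least 10 FPKM 6.32% rose and 6.94% fell. In this fit to all 9 libraries, the share of rising members was near the background, and the share of falling members was above it. The fitted change had a median of -0.18 over the members, -0.06 over all genes tested and -0.07 over those with a mean of at least 10 FPKM.

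The split between rising and falling members depended on the scaling of the libraries. With equal FPKM totals 10 members rose and 12 fell, against 6.26% and 3.47% of the genes with a mean of at least 10 FPKM. With quantile normalisation 11 rose and 14 fell (7% and 5.24% of those genes), and with median-of-ratios rescaling 9 rose and 14 fell (7.44% and 5.33%). Falling members thus stayed more numerous than rising members, by as few as 2, and their share stayed above that of the genes with a mean of at least 10 FPKM. Of the called members, 1 rising and 6 falling were called whichever library was left out. With 1 library left out, the counts of rising and falling members were lowest without overexpression at 96 h, at 1 and 7. The shares of the genes with a mean of at least 10 FPKM were then 0.68% and 0.517%. Without the knockout at 96 h the counts were 2 and 7 (0.952% and 0.666% of those genes). They were 6 and 10 without wild type at 96 h (2.15% and 2.2%) and 6 and 11 without wild type at 48 h (2.11% and 2.52%). With each of the other 5 libraries left out in turn they were 6 to 10 and 13 to 18 (2.71% to 7.27% and 2.35% to 5.41%). The share of rising members was above that of those genes whichever library was left out. It was 7.32% against 7.27% without the knockout at 48 h and 8.13% against 4.41% without the knockout at 72 h. Without wild type at 48 h it was 4.88% against 2.11%. Under median-of-ratios rescaling it was below, at 7.32% against 7.44%. These differences in share were not tested. The members had a median residual SD of 0.39 in this fit, against 0.29 over genes with a mean of at least 10 FPKM.

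For genes chosen by the mirrored rule, with the knockout at least 0.75 above wild type and above both strains at each time, the same test gave another split. Of those 164 genes 48 (29.3%) rose and 8 (4.88%) fell with time. The difference between these shares and those of the members was not tested.

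KFH45735.1 and KFH47136.1 were among the rising members, while KFH42484.1 and KFH43321.1, with the deepest deficits of all, were not called. The median level of the rising members went from 87.4 to 305 and 319 FPKM in wild type, and from 83.0 to 327 and 359 FPKM in overexpression. In the knockout it went from 36.7 to 52.4 and 76.7 FPKM. All 8 changed by at least 1 on the log2 scale in each strain, which the time term shared by the strains favours, so nothing is read from it about single strains. The median difference between knockout and wild type over the 3 times was -1.89 for the rising members and -1.03 for the falling members. The rule chose members on this difference, so both values are a description.

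KFH47136.1, described above, rose by a log2 change of 2.14 from 48 to 96 h (SE 0.23, limma adjusted p = 0.00759). KFH44146.1 rose by 2.06 (SE 0.29, limma adjusted p = 0.0123). It was at 309, 1747 and 1364 FPKM in wild type. Overexpression had 536, 1599 and 2238 FPKM and the knockout 115, 271 and 459 FPKM. Each strain was lowest at 48 h, and wild type was highest at 72 h while overexpression and the knockout were highest at 96 h. The call of KFH44146.1 ended without the knockout or overexpression at 96 h (limma adjusted p = 0.0538 and 0.0557), with fitted changes of 1.96 and 2.01. Without the strain term both calls ended (limma adjusted p = 0.234 and 0.212), at the same fitted changes of 2.14 and 2.06.

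The 16 falling members had a median level of 272, 103 and 79.0 FPKM in wild type and of 155, 116 and 71.5 FPKM in overexpression. In the knockout the medians were 85.4, 45.8 and 36.4 FPKM. Of the 16, 14 were lower by at least 1 on the log2 scale at 96 h than at 48 h in each strain. The time term shared by the strains favours this too, so nothing is read from it about single strains. The median difference of the falling members between knockout and wild type was -1.43 at 48 h, -0.66 at 72 h and -1.18 at 96 h.

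KFH42117.1 was at 165, 43.7 and 32.3 FPKM in wild type. Overexpression had 136, 44.0 and 16.5 FPKM and the knockout 60.2, 33.9 and 11.9 FPKM. Its fitted log2 change was -2.51 (SE 0.27, limma adjusted p = 0.00759), and the knockout was lowest at every time although all 3 strains ended low. KFH42105.1 was at 746, 295 and 151 FPKM in wild type. Overexpression had 702, 232 and 136 FPKM and the knockout 379, 178 and 66.1 FPKM. The gene fell in all 3 strains, with a fitted log2 change of -2.39 (SE 0.19, limma adjusted p = 0.00386).

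**Figure D5:**
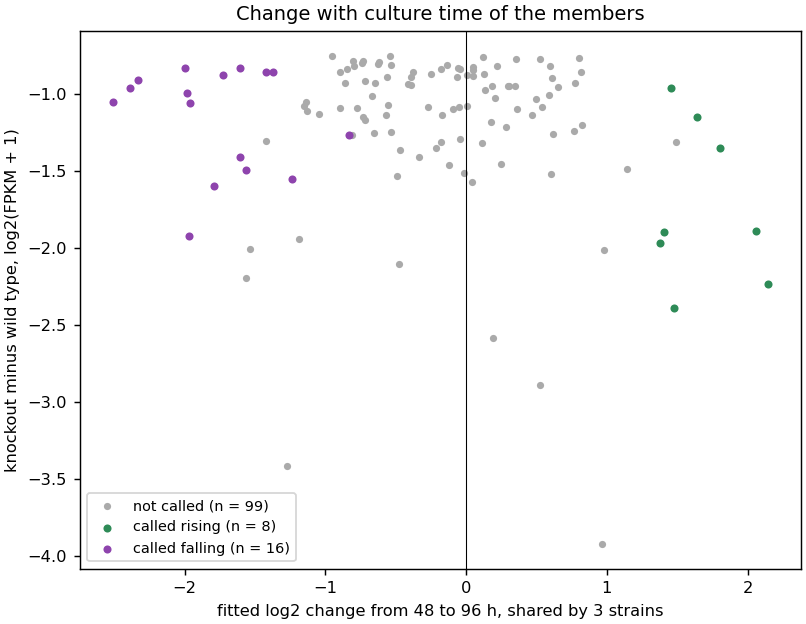
Each point is a member, placed by its fitted log2 change from 48 to 96 h, shared by the 3 strains (x axis), and by its difference between knockout and wild type (y axis, mean of log2(FPKM + 1) over 3 times). The 8 members called rising lie between 1.38 and 2.14, the 16 called falling between -2.51 and -0.83, and the other 99 were not called.

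Members were also grouped by their course in overexpression, whose libraries the rule used too, so that the values are a description. In 15 members overexpression was at least 1 higher at 96 h than at 48 h on the log2 scale. Their median knockout deficit was -1.02, -1.65 and -1.17 at 48, 72 and 96 h. In 35 members overexpression was at least 1 lower at 96 h, and the median deficit was -1.30, -0.79 and -1.18. In the 73 members between these limits it was -1.08, -1.07 and -1.21. The grouping was made after the values were seen, and no test was run on it.

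Whether the courses of members differed between strains was tested by giving every strain its own linear slope over time, in log2 units per 24 h, with 3 residual degrees of freedom left. The rule sets no slope, but it used the same libraries, and its order at each time limits the slopes of the members. The counts of members below are therefore a description. No member passed limma at an adjusted p under 0.05 for knockout against wild type or for overexpression against wild type, and neither did any other gene, so that 0% of the 8482 genes were called in either direction of either comparison. The smallest adjusted p among the members was 0.762 for the knockout and 0.385 for overexpression. At an unadjusted p under 0.05, 2 members had a higher and 5 a lower slope in the knockout than in wild type. For overexpression these numbers were 6 and 15. The corresponding shares of all genes tested were 1.80% and 3.70% for the knockout and 2.99% and 6.34% for overexpression. A slope test of this size does not show that the courses were alike.

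The extreme slopes show what single members did. KFH46963.1 had the most positive slope difference, 0.82 per 24 h (SE 0.22, limma adjusted p = 0.762). It was at 99.7, 96.4 and 90.0 FPKM in wild type. The knockout had 20.6, 45.2 and 60.1 FPKM and overexpression 188, 94.4 and 66.1 FPKM. At 96 h all 3 strains stood close together, although at 48 h they had differed most.

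KFH43075.1 had a slope difference of 0.66 per 24 h (SE 0.34, limma adjusted p = 0.877), and it turned to -0.047 without the knockout at 96 h. It was at 511, 193 and 154 FPKM in wild type. The knockout had 198, 105 and 151 FPKM and overexpression 320, 241 and 191 FPKM. At 96 h the knockout was below wild type by a log2 difference of only -0.03.

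The most negative slope differences, -2.13 for KFH43321.1 (SE 0.59, limma adjusted p = 0.762) and -1.13 for KFH45510.1 (SE 0.81, limma adjusted p = 0.904), belonged to genes with knockout values listed at 0. KFH45510.1 was at 5.17 FPKM, listed at 0, and at 3.18 FPKM in the knockout. It was at 9.26, 15.3 and 32.4 FPKM in wild type and at 24.2, 21.3 and 15.9 FPKM in overexpression, and its slope difference was the same without the knockout at 72 h, the middle time, where it is listed at 0. Without the knockout at 48 h the value listed at 0 enters the slope, and the difference turned to 1.21.

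Membership itself changed when a single library was left out, which is a limit on every count above. With 1 library left out, the rule, applied to the libraries left, chose 120 to 228 genes. The order condition at the time of the missing library was then not asked, and strain means were compared over unequal sets of times. These counts therefore do not show the effect of a library apart from that of a changed rule. The count reached 228 when wild type at 48 h was missing and 204 when the knockout at 48 h was. Of the 123 members, 24 were chosen whichever library was left out, and 98 under each of 3 rescalings of the libraries. The fewest members were shared without wild type at 48 h, where 81 (65.9%) were chosen again.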

How the data were processed

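Values are FPKM, 1 per gene and library, as deposited by the authors. No unit is named per the file header. It was inferred from the deposited values, which carry up to 6 significant digits and sum to a different total in each library. Per the submitters' processing notes, CASAVA (no version) and HISAT2 2.0.5 were used, with no role given. The genome build, the gene models and the tool that made the FPKM values are not given in the labels or the file. All 9 columns matched a library by title, and 0 were left unmatched.

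Strain contrasts of the members were described and not tested. For time, the 8482 genes that reached 1 FPKM in 3 or more libraries were fitted as log2(FPKM + 1) with limma 3.58.1 in R 4.3.3. The model held strain and time as factors (4 residual degrees of freedom, 3.26 prior), with an intensity trend and Benjamini-Hochberg adjustment over all genes tested. A pseudocount of 1 understates fold changes of low genes. The script was tested on simulated data. FPKM values are not counts, so no count test was run, no counting interval is given and depth is known only as a ratio. Whole reads were not recovered, since FPKM steps depend on transcript length.

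The members and the choices of test were made with earlier results of these data known. Named members are the 2 with the most negative difference between knockout and wild type, the 2 with the highest mean level, the 2 rising and 2 falling most among those called over time, and the 2 with the largest slope difference in each direction. The 2 with the deepest deficits among members above 0 in every library were added after the values were seen.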

Additional observations from a re-analysis of the deposited data

How the results depend on the processing

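The counts of members and of time calls moved under several settings, while no slope difference was called under any. The 123 members became 69 with the knockout limit at -1, 68 with the overexpression limit at 0.25, both stricter by construction. They became 237 without all 48 h libraries, and so without the order condition at 48 h, and 81 of these were among the 123. The counts of members were 107 to 173 under the other settings that left out no single library, and 119 without the members listed at 0, a setting chosen after seeing the data. The 173 were chosen without all 96 h libraries, and 80 of them were among the 123. With 1 library left out they ranged from 120 to 228, where the order at the time of the missing library was not asked. Over time, rising members ranged from 1 to 10 and falling members from 7 to 18 with 1 library left out. The shares of genes with a mean of at least 10 FPKM ranged from 0.68% to 7.27% rising and from 0.517% to 5.41% falling. Without the strain term, which serves as a block over the 3 libraries of a strain, limma called 0 rising and 3 falling members. It called 0.707% rising and 1.35% falling among genes with a mean of at least 10 FPKM. At an unadjusted p under 0.05 the members were 4 and 16, with no share over all genes given here. Slope differences gave 0 called members in limma under all 15 alternatives. At an unadjusted p under 0.05 there were 5 to 22 members for the knockout and 4 to 23 for overexpression. No share of all genes under the same settings is given, so nothing is read from these ranges. With 1 library left out, the slope difference of KFH43075.1 ranged from -0.047 without the knockout at 96 h to 1.38 without the knockout at 48 h. That of KFH45510.1 ranged from -3.48 without the knockout at 96 h to 1.21 without the knockout at 48 h. The labels carry no replicate numbers, so libraries were matched across strains by time alone, through the time term of the fit.

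Rescaling moved the median over genes with a mean of at least 10 FPKM by over 0.1. With equal FPKM totals, overexpression minus wild type at 96 h went from -0.01 to 0.18, and knockout minus wild type at 96 h from 0.01 to -0.11. The median knockout deficit of the members stayed between -1.33 and -1.03 at each time under the 3 rescalings. The median difference in overexpression ranged from -0.13 to 0.11, so no direction is given for it.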

Other observations

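Protein accession numbers of the members included 4 pairs of consecutive numbers, which involve 8 of the 123 members. The 164 genes chosen by the mirrored rule included 5 such pairs. Whether consecutive accession numbers are neighbours in the genome was not looked up here, and no test was run.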
